A study of Sus scrofa with 4 samples.

Results

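The genes described here are those of the pig (Sus scrofa) whose symbol begins with RNF or TRIM followed by a digit, and nearly all of them encode ubiquitin ligases or proteins built like them. The deposited table held 75 RNF genes and 48 TRIM genes, 123 of 25560 genes in all, chosen by symbol alone and spread over 191 transcript rows. RNA was sequenced from 4-cell embryos in 2 libraries labelled TFAP2C knockdown (genotype TFAP2C KD, treated by injection of small interfering RNA) and 2 libraries labelled control (genotype and treatment both given as control). The protocol, stated for all 4 samples, is cytoplasmic injection of small interfering RNA, and the labels do not say what the controls received, how many embryos a library holds, how the embryos were made, or whether replicates are separate pools. The p-values below thus describe the scatter among 4 libraries, some or all of which may be technical.

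Ubiquitin ligases, or E3 enzymes, choose the proteins that are tagged with ubiquitin. An E1 enzyme activates ubiquitin, an E2 enzyme carries it, and a RING domain in the ligase brings the loaded E2 to the substrate, which may then go to the proteasome or change its partners. RNF is a naming stem for proteins with a RING finger and little else in common, whereas TRIM proteins carry a RING, a B-box and a coiled coil followed by varied C-terminal domains. In the egg and the early embryo many transcripts are stored from oocyte growth, and the turnover of maternal protein and RNA accompanies the start of transcription from the embryo's own genome. With a single stage and no oocyte library, stored and newly made transcripts cannot be told apart here.

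The values are FPKM (fragments scaled for transcript length and for the library's total), summed over the transcript rows of a gene, and all levels below are on that scale. Between 9238 and 9917 genes reached 1 FPKM in a library, and the 13 mitochondrially encoded protein genes made up 39.9% and 26.9% of TPM (levels scaled so that every library has the same sum) in labelled knockdowns 1 and 2, against 18.5% and 24.1% in labelled controls 1 and 2. The labels cannot be checked with the targeted gene. TFAP2C was listed at 0.448 and 3.11 FPKM under labelled knockdowns 1 and 2 and at 14.7 and 7.78 under labelled controls 1 and 2, but its ratio of coverage to FPKM was 6.69 and 7.03 under the knockdowns and 6.07 and 8.83 under the controls. The ratios of the libraries themselves were 6.07 and 8.83 in labelled knockdowns 1 and 2 and 6.69 and 7.03 in labelled controls 1 and 2, so the TFAP2C row carries the ratios of the other group's libraries. No RNF or TRIM row with more than 1 FPKM departed from its library's ratio (tolerance 0.001, relative), and every direction below is that of the libraries as labelled.

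Of the 10 markers fixed for the oocyte and early embryo, all were detected, and their summed level was 2846 and 3831 FPKM in labelled knockdowns 1 and 2 and 5417 and 5043 FPKM in labelled controls 1 and 2. The 18 cumulus and granulosa markers in the table had a summed level of 22.8 and 17.3 FPKM in the labelled knockdowns and of 23.3 and 16.6 FPKM in the labelled controls, with AMH, KRT18 and PTGS2 at 0 in all 4 libraries. The summed level of the 5 blood markers was 1.90 and 0.889 FPKM in the labelled knockdowns and 0.0487 and 0.308 FPKM in the labelled controls. The 3 sperm markers did not pass 0.584 FPKM in any library.

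RNF genes were well represented among the RNA of these embryos and TRIM genes much less so. Averaged over all libraries, 1 FPKM or more was reached by 42 of 75 RNF genes (56.0%) and 14 of 48 TRIM genes (29.2%), against 43.0% of the 18306 RefSeq protein-coding genes in the table. At least 100 FPKM was reached by 5 RNF genes and by TRIM36 alone in its family. In the other direction, 5 TRIM genes (TRIM10, TRIM16, TRIM54, TRIM62 and TRIM63) were listed at 0 in all 4 libraries, and no RNF gene was. The RNF genes summed to 1262 and 1370 FPKM in labelled knockdowns 1 and 2 and to 1809 and 1712 FPKM in labelled controls 1 and 2. The 10 most abundant of them made up 71.1% to 74.6% of that sum in each library. The TRIM genes summed to 284 and 341 FPKM in labelled knockdowns 1 and 2 and to 405 and 287 FPKM in labelled controls 1 and 2, and TRIM36 alone made up 55.9% to 71.1% of it. These sums overlapped, and the direction of their difference depended on the scaling and on labelled control 1.

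**Figure D1:**
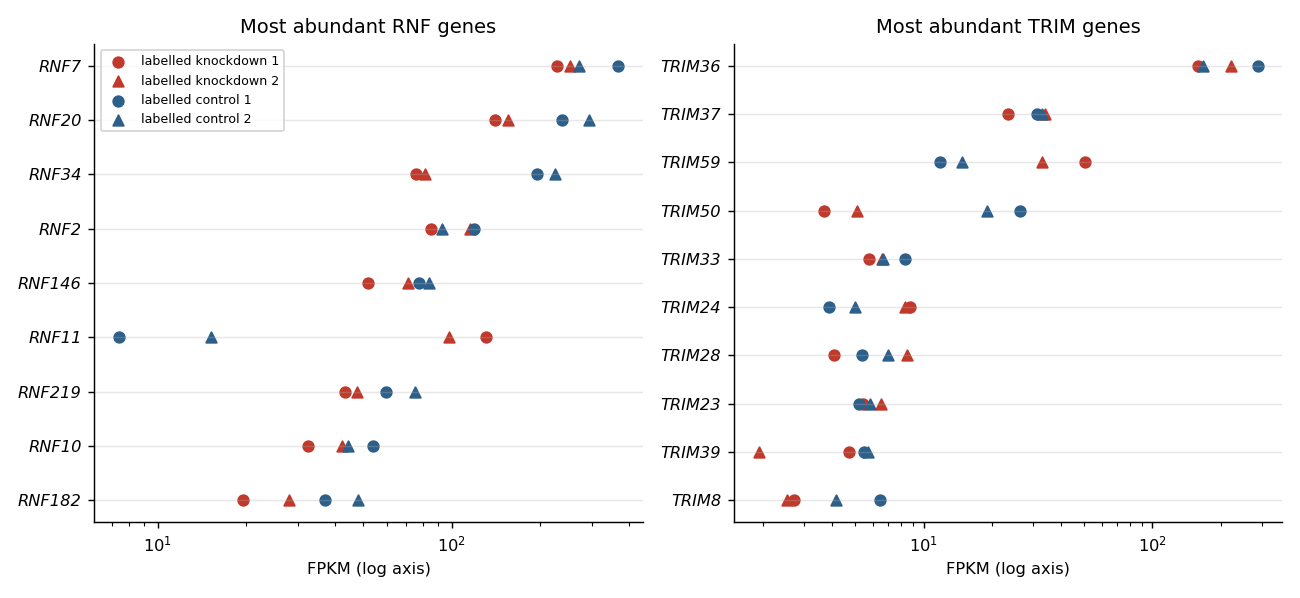
FPKM (log axis) of RNF genes and TRIM genes among the 10 most abundant of each family, ranked by the sum over libraries, with a red point for each labelled knockdown library and a blue point for each labelled control library. RNF11, RNF34, TRIM59 and TRIM50 show a wide gap between the groups, whereas RNF2, TRIM36 and TRIM23 overlap.

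RNF7, the most abundant member, encodes the RING subunit of cullin ligases built on CUL5, also known as RBX2. It stood at 228 and 252 FPKM in labelled knockdowns 1 and 2 and at 367 and 271 FPKM in labelled controls 1 and 2. Both labelled knockdowns lay below both labelled controls, yet the difference was not past the threshold (log2 fold change -0.39, SE 0.29, 95% interval -1.10 to 0.31, limma with Benjamini-Hochberg adjusted p = 0.41). RNF20, which with RNF40 attaches a single ubiquitin to histone H2B, was next at 140 and 155 FPKM in the labelled knockdowns and 236 and 292 FPKM in the labelled controls. The groups did not overlap, and its log2 fold change of -0.83 (SE 0.27) missed the threshold after adjustment (limma, Benjamini-Hochberg adjusted p = 0.12). Its partner RNF40 was present at far lower levels per length, 0.699 and 1.48 FPKM in the labelled knockdowns and 3.34 and 1.95 FPKM in the labelled controls. RNF2, the catalytic subunit of Polycomb repressive complex 1 that modifies histone H2A, stood at 84.9 and 115 FPKM in the labelled knockdowns and at 119 and 92.5 FPKM in the labelled controls. These overlapped, with a log2 fold change of -0.09 and a 95% interval of -0.83 to 0.66 that holds changes of either sign.

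Other abundant RNF genes also had their labelled knockdown libraries below their labelled control libraries without passing the threshold. RNF146, which reads poly(ADP-ribose) chains and targets axin in the Wnt pathway, stood at 52.0 and 70.9 FPKM in the labelled knockdowns and at 77.2 and 83.3 FPKM in the labelled controls. RNF219, a ligase of the origin recognition complex, stood at 43.5 and 47.5 FPKM in the labelled knockdowns and at 59.6 and 75.0 FPKM in the labelled controls. In both genes the groups were separate, and their log2 fold changes were -0.40 and -0.55 (limma, Benjamini-Hochberg adjusted p = 0.40 and 0.25). RNF10, which modifies ribosomal proteins of the small subunit, stood at 32.4 and 42.3 FPKM in the labelled knockdowns and at 53.9 and 44.3 FPKM in the labelled controls. RNF182, a membrane-bound ligase, stood at 19.5 and 28.0 FPKM in the labelled knockdowns and at 37.2 and 47.8 FPKM in the labelled controls. Their log2 fold changes were -0.39 and -0.82.

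Among TRIM genes the most abundant was TRIM36, a microtubule-binding ligase whose RNA in the frog Xenopus lies at the vegetal pole of the egg and is needed for the dorsal axis. It stood at 158 and 219 FPKM in labelled knockdowns 1 and 2 and at 288 and 166 FPKM in labelled controls 1 and 2. Libraries of one label differed as much as libraries of different labels, and the log2 fold change of -0.23 had a 95% interval of -1.14 to 0.68. Its sign turned without labelled knockdown 1 (0.007) and without labelled control 1 (0.17). TRIM37, a centrosomal ligase, followed at 23.4 and 34 FPKM in the labelled knockdowns and 31.4 and 32.8 FPKM in the labelled controls. It too overlapped between groups, and its log2 fold change of -0.18 turned to 0.08 without labelled knockdown 1. The order by abundance was partly kept between libraries: 7 RNF genes and 7 TRIM genes were among the 10 most abundant of their family in all 4 libraries, while 15 RNF and 13 TRIM genes were so in at least 1.

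**Figure D2:**
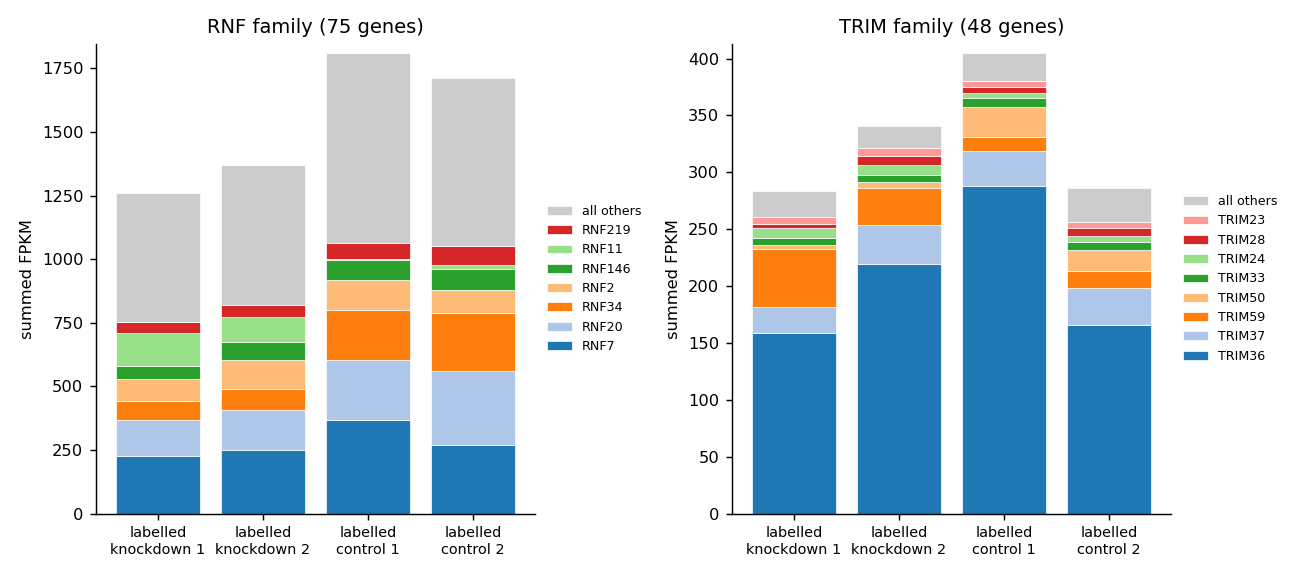
Summed FPKM of the RNF family and of the TRIM family in each library, stacked by named genes among the 8 most abundant of each family, with all others in grey. The RNF bars of the labelled knockdowns (1262 and 1370 FPKM) lie below those of the labelled controls (1809 and 1712 FPKM), while the TRIM bars overlap between the groups and consist mostly of TRIM36.

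The study compared embryos with and without targeting of TFAP2C, and 5 genes of the 2 families passed the threshold in that contrast. RNF11 rose in the RNF family and RNF34 and RNF114 fell, out of 42 tested. TRIM59 rose and TRIM50 fell, out of 14 tested. Over all 9850 genes tested, 5.11% were called higher and 1.46% lower in the labelled knockdowns (limma on log2(FPKM + 1), Benjamini-Hochberg adjusted p under 0.05) and counts of 1 or 2 in a family are too few to set apart from those shares. With deposited TPM in place of FPKM the calls over all genes were 452 higher (4.59%) and 268 lower (2.72%), against 503 higher and 144 lower with FPKM. At an unadjusted p under 0.05, 2 RNF genes were higher and 13 lower, and 3 TRIM genes were higher and 2 lower, where 14.0% and 13.9% of all tested genes were higher and lower. The 13 lower RNF genes became 12 with a pseudocount of 0.1, 16 with TPM and 8 after median-ratio scaling. Over all 9850 genes the lower ones numbered 1371, or 1339 with a pseudocount of 0.1, 2023 with TPM and 974 after median-ratio scaling. With a minimum mean of 5 FPKM 8 of 30 tested RNF genes were lower, where 889 of all 5584 tested genes were. Among transcript rows 8 of 54 tested RNF rows were lower, where 1109 of all 11230 tested rows were. The number of lower RNF genes also fell with each library left out, and so did the number of lower genes over the whole table.

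RNF11, a small RING protein that works with the deubiquitinating enzyme A20 to restrain NF-kB signalling, had the largest log2 fold change, on the log2(FPKM + 1) scale, among the 56 members tested. It stood at 130 and 97.8 FPKM in labelled knockdowns 1 and 2 and at 7.39 and 15.2 FPKM in labelled controls 1 and 2. Each labelled knockdown was at least 6.42 times either labelled control. The log2 fold change was 3.29 (SE 0.40; adjusted p = 0.0156, limma and Benjamini-Hochberg). It made up 10.3% and 7.14% of the RNF sum in labelled knockdowns 1 and 2 and 0.409% and 0.889% in labelled controls 1 and 2. The gene (chromosome 6, 160875868 to 160911713, Sscrofa11.1) has a single transcript row, and no other annotated gene overlaps it.

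TRIM59, a membrane-anchored TRIM protein, stood at 50.8 and 33.0 FPKM in the labelled knockdowns and at 11.9 and 14.7 FPKM in the labelled controls. The groups were separate, with a log2 fold change of 1.56 (SE 0.32; adjusted p = 0.0487, limma and Benjamini-Hochberg), close to the threshold. With TPM it was 1.32 and no longer called (limma, Benjamini-Hochberg adjusted p = 0.066). Its 2 transcript rows did not move together. The more abundant row stood at 45.7 and 30.4 FPKM in the labelled knockdowns and at 8.86 and 0.723 FPKM in the labelled controls, while the other stood at 5.12 and 2.63 FPKM in the labelled knockdowns and at 2.99 and 14.0 FPKM in the labelled controls. The gene (chromosome 13, 100118824 to 100133117) overlaps one end of SMC4, a condensin subunit, which stood at 39.1 and 49.0 FPKM in the labelled knockdowns and at 41.0 and 25.9 FPKM in the labelled controls. Reads in the shared span cannot be told apart.

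RNF34, a ligase known for its action on caspases, was the third most abundant RNF gene. It fell to 75.6 and 81.1 FPKM in the labelled knockdowns, against 195 and 225 FPKM in the labelled controls. Libraries of one label lay close together and the groups were far apart, with a log2 fold change of -1.41 (SE 0.26; adjusted p = 0.0403, limma and Benjamini-Hochberg). All of this level was assigned to a transcript model that RefSeq classes as non-coding, and the protein-coding row of RNF34 was listed at 0 in all 4 libraries. The gene (chromosome 14, 31202030 to 31229529) overlaps one end of KDM2B, which lay at 0.388 to 0.698 FPKM over the 4 libraries.

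RNF114, a zinc finger RING ligase that in the mouse is a maternal factor needed for the passage from maternal to zygotic control, fell to 16.0 and 10.6 FPKM in the labelled knockdowns, against 49.6 and 48.3 FPKM in the labelled controls. The labelled knockdown mean was 0.273 times the labelled control mean, and the log2 fold change was -1.83 (SE 0.30; adjusted p = 0.0318, limma and Benjamini-Hochberg). The gene lies on chromosome 17, 51513646 to 51527783. TRIM50, a ligase best known from the acid-secreting parietal cells of the stomach, had the most negative log2 fold change, on the log2(FPKM + 1) scale, among the 56 members tested. It stood at 3.66 and 5.12 FPKM in the labelled knockdowns and at 26.4 and 18.9 FPKM in the labelled controls, with a log2 fold change of -2.13 (SE 0.32; adjusted p = 0.025, limma and Benjamini-Hochberg). TRIM50 (chromosome 3, 10647690 to 10655345) has 1 transcript row. Apart from TRIM39 it was the only TRIM gene tested among the 15 in the table listed for a C-terminal PRY-SPRY domain and not for antiviral roles.

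**Figure D3:**
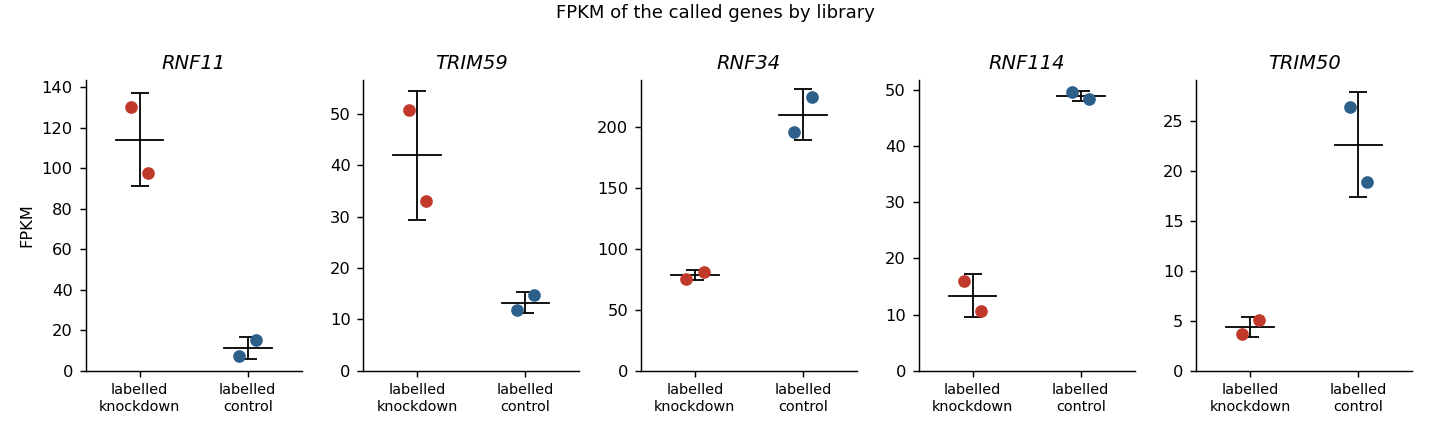
FPKM of the 5 genes past the threshold, each on its own linear axis from 0, with 1 point per library, the mean as a long bar and the SD as whiskers (n = 2 per group). RNF11 and TRIM59 are higher in the labelled knockdowns, and RNF34, RNF114 and TRIM50 are lower, with no overlap between the groups.

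Of the 56 tested members 26 overlap another annotated gene, and whether the libraries keep strand is not stated. The calls rest on few libraries. Without labelled knockdown 1 or without labelled knockdown 2 none of the 5 was called, and no gene of the whole table was either, although before adjustment (limma p under 0.05) the fit without labelled knockdown 1 had 978 rises and 811 falls and that without labelled knockdown 2 had 1413 and 1261. Without labelled control 1 only RNF11 kept its call among them, and without labelled control 2 only RNF11 and TRIM50 did. Over all alternatives tried the log2 fold changes ranged from 2.81 to 3.76 for RNF11 and from 1.26 to 3.22 for TRIM59. The value of 3.22 is that of the more abundant TRIM59 row alone. They ranged from -1.70 to -1.24 for RNF34, from -2.14 to -1.55 for RNF114 and from -2.49 to -1.90 for TRIM50. The groups of these genes do not overlap, so leaving out a library or adding the replicate number as a block could not turn a sign.

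With the called genes included, RNF genes as a family lay toward lower values in the labelled knockdowns. Of the 42 tested, 30 had a negative and 12 a positive log2 fold change, and the median was -0.40, against -0.13 over all genes tested. Of all 9850 genes tested, 5671 had a negative and 4179 a positive log2 fold change. The 2 labelled knockdown libraries lay below both labelled control libraries in 25 RNF genes (59.5%) and above them in 6 (14.3%), where all tested genes gave 35.8% and 24.7%. Scaling shifts all genes together: the median over all tested genes was 0.006 after median-ratio scaling and -0.39 with TPM. The RNF median was -0.26 after median-ratio scaling and -0.69 with TPM, so that it lay 0.26 to 0.30 below that of all genes with FPKM and under both of these scalings. Its difference from the median of all genes was smaller under other filters, -0.21 with a minimum mean of 5 FPKM and -0.12 without a filter. In the same libraries the summed oocyte and embryo markers were lower too (2846 and 3831 FPKM against 5417 and 5043 FPKM in the labelled controls), and their part in the RNF values was not tested. Of the 10 markers 9 had a negative and 1 a positive log2 fold change, and the groups overlapped for ZAR1, ZP4 and BTG4. FPKM is scaled to the library's total, so these values show neither cell number nor the amount of RNA per cell.

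The 14 tested TRIM genes lay closer to the rest. Of them 5 had a positive and 9 a negative log2 fold change, with a median of -0.20. The groups were separate with the labelled knockdowns higher in 4 and lower in 5, 28.6% and 35.7%, close to the shares over all genes. The TRIM median turned to 0.04 without labelled knockdown 1.

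**Figure D4:**
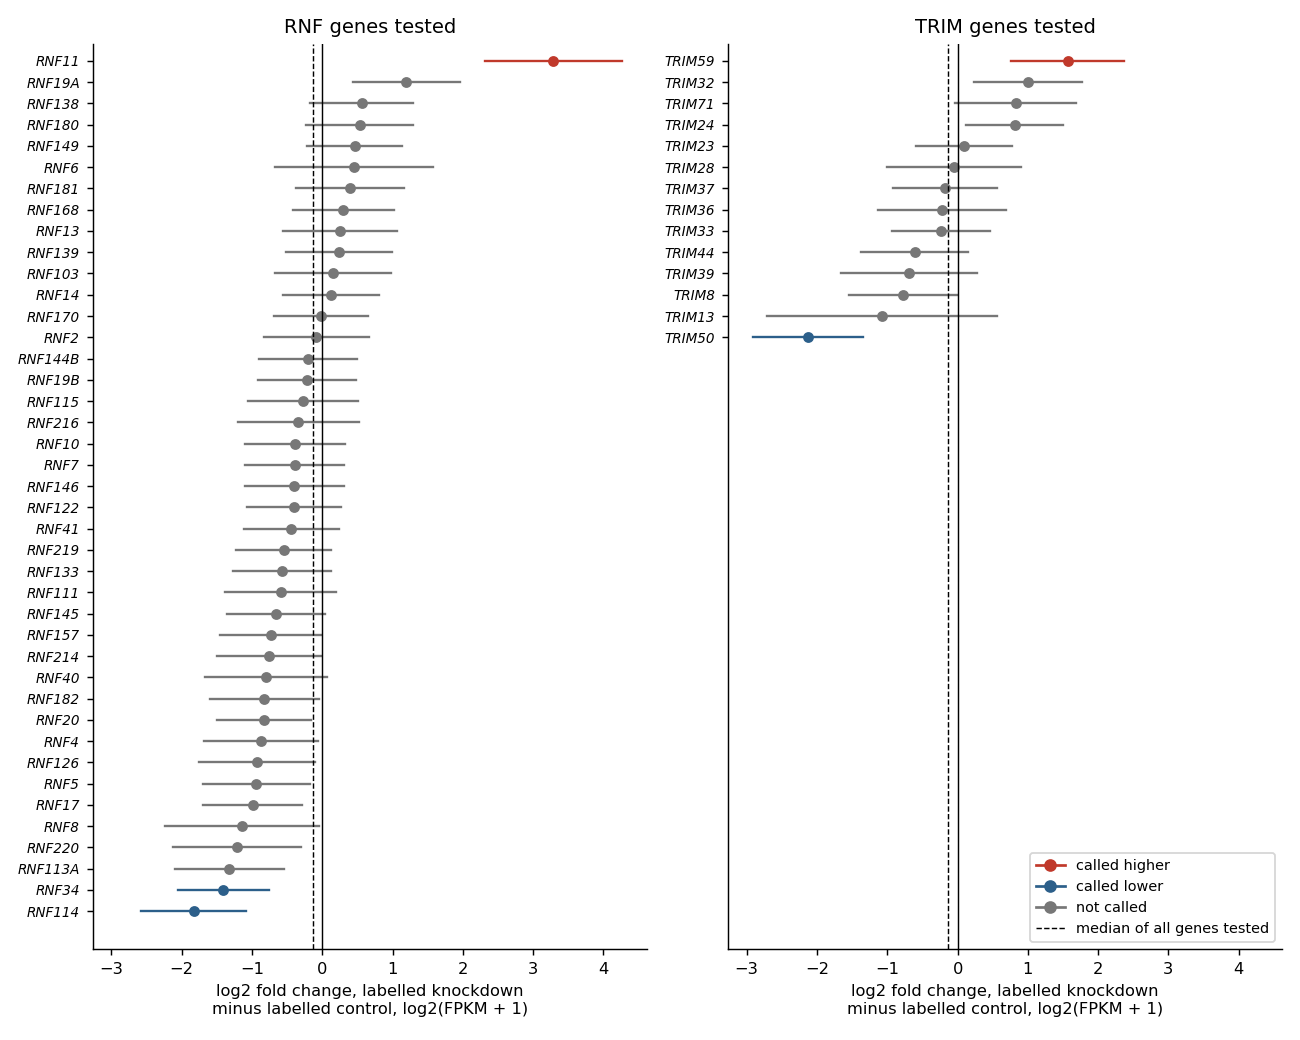
Log2 fold change on the log2(FPKM + 1) scale, labelled knockdown minus labelled control, with its 95% interval (limma), for RNF genes and TRIM genes that were tested, 1 RNF gene left out; the dashed line marks the median of all genes tested (-0.13). Most RNF points lie left of 0, and RNF11 stands far to the right.

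By role, the ligases that act on chromatin and DNA damage included several of the lower RNF genes. Of 9 tested, 2 had a positive and 7 a negative log2 fold change with a median of -0.59, and none passed the threshold. Negative values were held by 30 of the 42 tested RNF genes and by 5671 of all 9850 tested genes. RNF111 is also in the list of signalling ligases, and RNF138 also in the group of RNF114. RNF8, which marks chromatin around DNA breaks, stood at 10.2 and 4.84 FPKM in the labelled knockdowns and at 12.5 and 22.4 FPKM in the labelled controls. RNF168, which acts after RNF8 on histone H2A, stood at 17.0 and 23.3 FPKM in the labelled knockdowns and at 16.9 and 15.1 FPKM in the labelled controls. The pair thus had log2 fold changes of opposite sign, -1.14 and 0.30, and neither passed the threshold (limma, Benjamini-Hochberg adjusted p = 0.17 and 0.54). RNF4, which recognises SUMO chains, had a log2 fold change of -0.87 at 2.29 and 1.81 FPKM in the labelled knockdowns and 5.88 and 3.49 FPKM in the labelled controls.

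The 9 tested signalling ligases had 2 positive and 7 negative log2 fold changes, with a median of -0.44, and hold RNF11 and RNF34 among the calls. RNF220, a ligase that stabilises beta-catenin, stood at 1.59 and 3.29 FPKM in the labelled knockdowns and at 5.52 and 8.10 FPKM in the labelled controls (log2 fold change -1.21, SE 0.37). RNF111, known as Arkadia and a positive regulator of TGF-beta and nodal signalling, stood at 14.4 and 22.9 FPKM in the labelled knockdowns and at 28.5 and 27.3 FPKM in the labelled controls (log2 fold change -0.59, SE 0.32). Both had separate groups and missed the threshold (limma, Benjamini-Hochberg adjusted p = 0.11 and 0.28).

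Ligases of the endoplasmic reticulum and Golgi were balanced, with 3 positive and 4 negative of 7 tested, a median of -0.01 and no call. RNF139, known as TRC8 and a part of sterol-regulated degradation, stood at 26.7 and 38.2 FPKM in the labelled knockdowns and at 29.9 and 24.3 FPKM in the labelled controls. RNF5, which takes part in degradation at the endoplasmic reticulum, stood at 2.99 and 3.14 FPKM in the labelled knockdowns and at 5.48 and 8.37 FPKM in the labelled controls. The groups overlapped for RNF139 and were separate for RNF5, whose log2 fold change was -0.94 (SE 0.31; adjusted p = 0.12, limma and Benjamini-Hochberg). Of the 9 ligases with a protease-associated domain, found on endosomes and the plasma membrane, 3 were tested, and RNF13 was the most abundant at 29.9 and 41.6 FPKM in the labelled knockdowns and 35.6 and 24.5 FPKM in the labelled controls. RNF43, which removes Wnt receptors from the cell surface, was too low to test, at 0 to 0.256 FPKM.

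Of the ligases with a RING-between-RING, which take ubiquitin onto themselves before passing it on, 5 were tested and none was called. RNF19A, known as dorfin, had the second largest positive log2 fold change of the RNF family. It stood at 39.5 and 30.9 FPKM in the labelled knockdowns and at 12.4 and 17.4 FPKM in the labelled controls, separate groups with a log2 fold change of 1.19 (SE 0.31; adjusted p = 0.079, limma and Benjamini-Hochberg). An annotated pseudogene within RNF19A stood at 32.8 and 43.5 FPKM in the labelled knockdowns and at 56.8 and 35.3 FPKM in the labelled controls. RNF19B, a relative of RNF19A, had 6.36 and 5.44 FPKM in the labelled knockdowns and 6.36 and 7.70 FPKM in the labelled controls. RNF114 and RNF138, of one group of zinc finger RING ligases, differed in sign: RNF138 stood at 15.7 and 19.4 FPKM in the labelled knockdowns and at 13.5 and 9.85 FPKM in the labelled controls, a log2 fold change of 0.56 (SE 0.30) that missed the threshold. RNF125 and RNF166 of the same group were too low to test.

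Among germ line genes RNF17, a tudor-domain protein of the piRNA pathway, was the only one tested, at 10.6 and 14.3 FPKM in the labelled knockdowns and 24.3 and 26.5 FPKM in the labelled controls. Its groups were separate and its log2 fold change was -0.99 (SE 0.29; adjusted p = 0.098, limma and Benjamini-Hochberg). RNF113A, which is bound to the spliceosome and to repair of alkylated DNA, had the third largest negative log2 fold change of the family, -1.32 (SE 0.31), at 10.5 and 15.2 FPKM in the labelled knockdowns and 37.4 and 29.2 FPKM in the labelled controls. It missed the threshold (limma, Benjamini-Hochberg adjusted p = 0.068).

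The TRIM genes of the TIF1 group, which bind chromatin through a PHD finger and a bromodomain, were present at low to middling levels. TRIM24, a nuclear receptor cofactor, stood at 8.77 and 8.27 FPKM in the labelled knockdowns and at 3.88 and 5.03 FPKM in the labelled controls, with a log2 fold change of 0.81 (SE 0.28) that missed the threshold. TRIM28, the corepressor of KRAB zinc finger proteins, stood at 4.06 and 8.45 FPKM in the labelled knockdowns and at 5.40 and 7.03 FPKM in the labelled controls. TRIM33, which binds SMAD proteins, stood at 5.81 and 6.56 FPKM in the labelled knockdowns and at 8.32 and 6.68 FPKM in the labelled controls. Only TRIM24 had its labelled knockdowns above its labelled controls, and the log2 fold change of TRIM28, -0.05 with a 95% interval of -1.0 to 0.90, leaves its sign undetermined.

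Both tested TRIM genes with NHL repeats, which bind RNA or protein partners, were higher in both labelled knockdowns without passing the threshold. TRIM71, known as LIN41 and a repressor of mRNAs in stem cells and germ cells, stood at 4.36 and 2.22 FPKM in the labelled knockdowns and at 1.16 and 1.54 FPKM in the labelled controls. TRIM32 stood at 3.72 and 2.32 FPKM in the labelled knockdowns and at 0.842 and 1.11 FPKM in the labelled controls. Their log2 fold changes were 0.83 (SE 0.35) and 1.01 (SE 0.31), with adjusted p = 0.19 and 0.11 (limma with Benjamini-Hochberg adjustment). TRIM32 lies within ASTN2, which ran the other way at 5.09 and 10.2 FPKM in the labelled knockdowns and 27.3 and 14.4 FPKM in the labelled controls.

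Of the remaining TRIM genes, TRIM23, a ligase that is also a small GTPase of the ARF family, stood at 5.47 and 6.52 FPKM in the labelled knockdowns and at 5.22 and 5.84 FPKM in the labelled controls. TRIM39, a cell cycle and apoptosis regulator, stood at 4.72 and 1.91 FPKM in the labelled knockdowns and at 5.48 and 5.69 FPKM in the labelled controls. TRIM8, a regulator of cytokine signalling, stood at 2.71 and 2.54 FPKM in the labelled knockdowns and 6.47 and 4.16 FPKM in the labelled controls. TRIM13, anchored in the endoplasmic reticulum, had uneven values of 0.740 and 2.20 FPKM in the labelled knockdowns and 1.58 and 8.60 FPKM in the labelled controls. None of these 4 passed the threshold, and their log2 fold changes were 0.10, -0.69, -0.78 and -1.08. TRIM genes known from antiviral defence were low. Of 12 listed, 8 were in the table and none reached a mean of 1 FPKM, with a summed level of 1.72 and 2.68 FPKM in the labelled knockdowns and 2.43 and 3.58 FPKM in the labelled controls. The highest was TRIM65 at a mean of 0.956 FPKM. In the whole family 34 of 48 TRIM genes were under a mean of 1 FPKM.

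**Figure D5:**
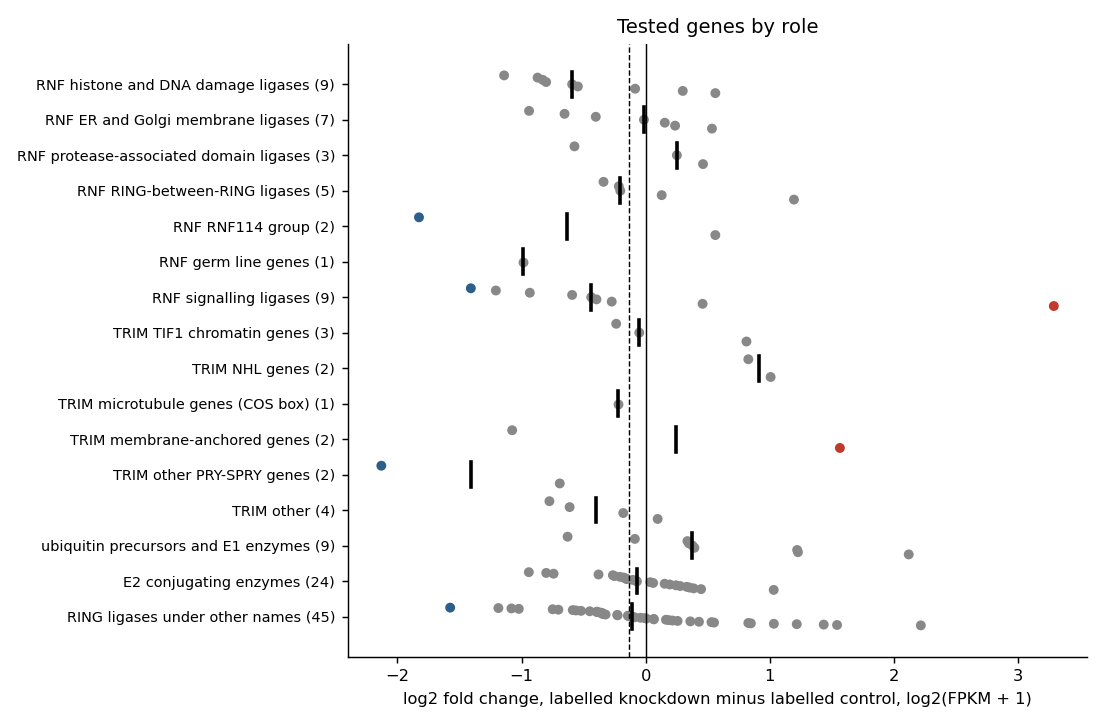
Log2 fold change, labelled knockdown minus labelled control on the log2(FPKM + 1) scale, of each tested gene in the RNF and TRIM role lists and in the lists of other ubiquitin pathway genes, with the number tested in brackets, a bar at each list's median, and the median of all genes tested dashed (-0.13). Red and blue points are genes called higher and lower; the chromatin and DNA damage ligases have a median of -0.59 and the E2 enzymes one of -0.07.

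Among the other enzymes of the pathway the medians lay nearer 0 than the RNF median of -0.40, or above 0. Over all genes tested the median was -0.13, and 5.11% were called higher and 1.46% lower. Of 24 E2 enzymes tested none was called, 11 had a positive and 13 a negative log2 fold change, and the median was -0.07. The E2 partner of RNF20, UBE2A, stood at 68.6 and 85.2 FPKM in the labelled knockdowns and at 90.7 and 71.1 FPKM in the labelled controls, so the groups overlapped. Of 9 tested genes for ubiquitin precursors and E1 enzymes none was called, 7 had a positive log2 fold change, and the median was 0.38. Among these E1 genes UBA2, UBA3, SAE1 and NAE1 activate proteins like ubiquitin and not ubiquitin itself. UBA6, which activates ubiquitin, had a log2 fold change of -0.63 with separate groups, and UBA1 was too low to test. UBB, a ubiquitin precursor, was far more abundant than any ligase, at 16294 and 10536 FPKM in the labelled knockdowns and 10178 and 9794 FPKM in the labelled controls. Of 45 RING ligases under other names 1 was called, UHRF1, which recruits the maintenance DNA methyltransferase, and the median was -0.11. UHRF1 fell to 2.3 and 3.25 FPKM in the labelled knockdowns, against 12.2 and 8.40 FPKM in the labelled controls (log2 fold change -1.57; adjusted p = 0.0473, limma and Benjamini-Hochberg). The calls in these lists are too few to set apart from the shares over all genes. The difference between the RNF genes and these lists was not tested.

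Within members, transcript rows could differ from the gene sum. Of 13 members with at least 2 tested rows, 7 had rows of both signs. RNF144B, a RING-between-RING ligase, overlapped between groups as a gene, at 15.4 and 18.1 FPKM in the labelled knockdowns and 17.1 and 21.9 FPKM in the labelled controls. One of its rows held 10.2 and 7.45 FPKM in the labelled knockdowns and was listed at 0 in both labelled controls. Its most abundant row ran the other way, at 5.18 and 3.95 FPKM in the labelled knockdowns and 17.1 and 9.89 FPKM in the labelled controls. Neither row passed the threshold (limma over transcript rows, Benjamini-Hochberg adjusted p = 0.053 and 0.19), RNF144B was singled out after its values were seen, and how reads were shared between rows with common exons is not given in the sources used here.

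The 67 members under a mean of 1 FPKM, 33 RNF and 34 TRIM genes, were not tested. The groups were separate all the same in some of them. The labelled knockdowns were higher in 6 RNF and 8 TRIM genes and lower in 8 RNF and 8 TRIM genes. The same shares over all genes under this mean were not taken, and the 3 genes given here were picked with their values known. TRIM27, a nuclear TRIM protein, stood at 0.927 and 1.49 FPKM in the labelled knockdowns and at 0.0920 and 0.0184 FPKM in the labelled controls. RNF152, a lysosomal ligase, stood at 1.25 and 1.69 FPKM in the labelled knockdowns and at 0 and 0.285 FPKM in the labelled controls. RNF183 ran the other way, at 0.251 and 0.142 FPKM in the labelled knockdowns and 1.35 and 0.964 FPKM in the labelled controls. Some of the separate groups lay at very low values in all 4 libraries, where slight differences suffice. Values of exactly 0 may be failed estimates.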

How the data were processed

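Per the labels' protocols, an RNeasy column kit gave the RNA and a SMARTer kit the libraries. The assembly was Sscrofa11.1 and the tools were StringTie 2.1.7, Bowtie2 2.3.5 and cutadapt, per the submitters' processing notes, which assign them no roles; strandedness, annotation and filters are not given here. The deposited table gives each transcript's FPKM, scaled by the authors for length and library size; deposited TPM, scaled to a fixed library sum; and deposited coverage, a signal of mean read depth per base, used only to check rows. The columns C1, C2, ST1 and ST2 were matched by initials and number to the titles control and SiTF. No counts are given, so depth is known only through the ratio of coverage to FPKM.

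Rows whose symbol in the file matches the rule kept it, and others were named from the RefSeq genes of Sscrofa11.1, whose gene coordinates are printed. All 191 member rows had the same name in both. FPKM was summed per gene. A trended fit in limma 3.58.1 (R 4.3.3) took genes averaging 1 FPKM or more, on log2(FPKM + 1), group as the only term, two-sided, Benjamini-Hochberg over 9850 genes, threshold 0.05; this scale understates the change of low genes. The fit has 2 residual degrees of freedom. Named genes are the 10 most abundant of each family, all called members, the 4 largest rises and falls of each family and members of the role lists. The values of 1 RNF member are not reported here, but it stays in every count, sum and fit. The members and lists were chosen with earlier results of these data known, so lists are described by counts and medians and get no test. Alternatives were another pseudocount (0.1), no filter or a minimum mean of 5 FPKM, median-ratio scaling, TPM, transcript rows, RefSeq names, each library left out, and the replicate number as a block; 2 more, only genes above 0 in all 4 libraries and crossed replicate numbers, were chosen after seeing the data. The titles number the libraries 1 and 2 in each group but do not say that a number marks a shared batch.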

Additional observations from a re-analysis of the deposited data

How the results depend on the processing

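Depth is known only as the ratio of coverage to FPKM, and with 2 libraries a group single calls are fragile. The alternative with RefSeq names repeats the main fit, with the same 503 and 144 calls over all genes. Where the groups of a gene do not overlap, leaving out a library or adding a block cannot turn its sign. For transcript rows the most abundant row of a gene was used, and the other tested row of TRIM59 had a log2 fold change of -0.71. Of the 5 called members, RNF11 passed the threshold in 10 of 14 alternatives, TRIM50 in 8, RNF114 in 7 and RNF34 and TRIM59 in 5 each, with no change of sign (limma, Benjamini-Hochberg). The numbers of RNF genes called higher and lower (1 and 2) and of TRIM genes called higher and lower (1 and 1) became 1 and 1, and 0 and 1, with a pseudocount of 0.1, where all genes gave 312 and 62. They were 0 throughout without a filter (all genes 0 and 0) and with transcript rows (all genes 70 and 34). Without a filter 4 of 75 RNF genes were higher and 11 lower at an unadjusted limma p under 0.05. Of all 25560 genes 1880 were higher and 1925 lower in that fit. With TPM the TRIM genes had 0 called higher, and all genes lower numbered 268; after median-ratio scaling they numbered 78, and a minimum mean of 5 FPKM gave 320 genes higher. Leaving out each library in turn gave 0 to 1 RNF genes higher, 0 to 0 lower, 0 to 0 TRIM genes higher and 0 to 1 lower, and over all genes 0 to 479 higher and 0 to 47 lower; the lone library of a group is then assumed to vary like the other group.

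The median log2 fold change of RNF genes was -0.48 with a pseudocount of 0.1, -0.12 without a filter, -0.26 after median-ratio scaling and -0.69 with TPM, and -0.51 to -0.39 with a library left out. That of TRIM genes was -0.0077 without a filter and -0.49 with TPM, and -0.38 to 0.044 with a library left out. The summed RNF level in the labelled knockdowns was 0.747 times that of the labelled controls, or 0.842 after median-ratio scaling and 0.618 with TPM. The TRIM ratio was 0.903, or 1.018 after median-ratio scaling and 0.750 with TPM, and 0.771 to 1.09 with a library left out, above 1 only without labelled control 1.

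With the replicate number as a block limma called RNF11 (adjusted p = 0.0492) and 0 of the other members, so that 0 RNF genes were lower and 0 TRIM genes higher or lower, with 125 genes higher and 8 lower in all. Deviations of the libraries numbered 1 correlated at -0.143 across genes, so crossed numbers were also tried, with 1 RNF gene lower and 611 genes higher and 119 lower in all.

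Of the 29 members chosen by abundance, call or size of change, 7 changed sign in at least 1 alternative. After median-ratio scaling RNF2 was 0.086 and TRIM28 0.093, and with TPM TRIM23 was -0.16; these scalings put the median of all genes at 0.0055 and -0.39, against -0.13 with FPKM, so values this near 0 turn by construction. With the most abundant transcript row RNF180 was -1.13 and TRIM33 0.18, against 0.53 and -0.24 for the gene sums. That row of RNF180 was listed at 0 in labelled knockdown 1. Another row stood at 9.40 FPKM there and at 0 in the other libraries. With a library left out RNF2 ranged from -0.30 to 0.13, TRIM23 from -0.013 to 0.205, TRIM28 from -0.50 to 0.40, TRIM36 from -0.62 to 0.17 and TRIM37 from -0.44 to 0.081. The cause of the shifts with transcript rows and with libraries left out was not tested.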
